A study of Mus musculus with 384 samples.

Results

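The densest stretches of accessible chromatin in cells sorted from a mouse breast tumor are described here, as 500-bp windows that lie crowded together. The single cells came from 1 tumor of a mouse that carries MMTV-PyMT, a viral oncogene driven in mammary epithelium by the MMTV promoter, and the mouse was sacrificed at 3 months of age. The tumor was fixed, dissociated, stained for EpCam (an epithelial surface protein) and CD45 (a leukocyte surface protein) and transposed, and single cells were sorted into 4 plates of 96 wells for an assay of transposase-accessible DNA. All wells form 1 group with no treated or control arm, the labels give no stain value per well, and the accessible windows are 1 list called on all cells together. The members were selected on the list itself. Chromosomes 1 to 6 and 10 to 19 of mm9 were cut into bins of 100 kb, and windows whose centre fell in a bin with 10 or more window centres were taken. Chromosomes 7, 8, 9 and X were set aside because 47.5% of the peaks called there stayed in the list against 24.6% on the other 16. This gave 2633 windows in dense bins, out of 33791 windows on the 16 chromosomes and 50000 in all.

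Accessible windows mark places where DNA is free of nucleosomes, at promoters, where transcription starts, and at enhancers, to which transcription factors bind at a distance from a gene. Enhancers often lie in clusters over long stretches around genes that define a cell type or that react quickly to a signal. AP-1, the dimer of Jun and Fos family proteins, binds many enhancers in epithelial tumors and in stimulated immune cells. PU.1 is the factor of myeloid and B cells, and the wider Ets family binds the promoters of many widely used genes.

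The following stretches show what such windows look like. The first set holds the AP-1 word TGACTCA or its reverse complement TGAGTCA, written in capitals, in each of the 6 bins with most windows. It is shown because this word was common in dense bins and occurred at promoters, in introns and between genes. All stretches are reference sequence of mm9.
Tnfrsf1b bin, intergenic (chr4:144848112-144848192, + strand): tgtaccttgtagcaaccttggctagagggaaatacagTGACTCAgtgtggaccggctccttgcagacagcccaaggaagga
Pmepa1 bin, intron of Zbp1 (chr2:173040218-173040298, + strand): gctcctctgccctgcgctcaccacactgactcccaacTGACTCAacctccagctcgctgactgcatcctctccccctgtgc
Zfp36l2 bin, intergenic (chr17:84540680-84540760, + strand): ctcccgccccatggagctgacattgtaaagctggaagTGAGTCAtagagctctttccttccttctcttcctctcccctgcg
Chromosome 12 bin without a coding start, intergenic (chr12:88174723-88174803, + strand): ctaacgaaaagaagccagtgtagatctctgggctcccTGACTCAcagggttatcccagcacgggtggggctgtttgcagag
Klf6 bin, intergenic (chr13:5836818-5836898, + strand): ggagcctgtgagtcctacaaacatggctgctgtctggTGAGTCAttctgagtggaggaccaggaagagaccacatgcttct
Irgm1 bin, promoter of Irgm1 (chr11:48684994-48685074, + strand): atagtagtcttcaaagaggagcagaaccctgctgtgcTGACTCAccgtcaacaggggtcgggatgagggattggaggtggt

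The Ets word CCGGAAGT, also read as its reverse complement, is shown in capitals at promoters of 3 bins in which promoters made up most windows.
Tagln2 bin, promoter of Tagln2 (chr1:174431295-174431376, + strand): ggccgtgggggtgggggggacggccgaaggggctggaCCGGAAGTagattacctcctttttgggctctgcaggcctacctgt
Daxx bin, promoter of Kifc1 (chr17:34027704-34027785, + strand): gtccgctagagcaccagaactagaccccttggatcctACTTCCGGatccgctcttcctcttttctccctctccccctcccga
Ddit3 bin, promoter of Ddit3 (chr10:126727612-126727693, + strand): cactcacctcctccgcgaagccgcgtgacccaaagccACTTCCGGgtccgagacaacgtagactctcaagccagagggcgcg
The PU.1 word GAGGAAGT, again on either strand, is shown in capitals in windows away from start sites.
Tnfrsf1b bin, intron of Tnfrsf8 (chr4:144890323-144890404, + strand): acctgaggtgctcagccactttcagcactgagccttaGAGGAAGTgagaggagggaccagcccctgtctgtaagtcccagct
Zfp36l2 bin, intergenic (chr17:84517758-84517839, + strand): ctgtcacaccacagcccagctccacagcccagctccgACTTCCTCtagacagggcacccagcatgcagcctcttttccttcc
The Ets and PU.1 words share the letters GGAAGT and differ in what precedes them. A match is a description of the sequence and does not show that the factor was bound.

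The dense bins were 1.08% of the 20646 bins and held 7.79% of the windows. A bin on these chromosomes held a median of 1 window and a mean of 1.64, and 8260 bins held 0. The dense bins held a median of 11 and at most 27 windows. Just inside the threshold, bins with 10 windows held 940 of the members, and just outside it 1197 windows lay in bins with 9. Only 25 bins held 15 or more and 3 held 20 or more. Every one of the 16 chromosomes had dense bins, from 6 on chromosomes 14 and 18 to 24 on chromosome 4. By share of bins, chromosome 19 stood highest at 2.12% and chromosome 14 lowest at 0.479%.

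**Figure D1:**
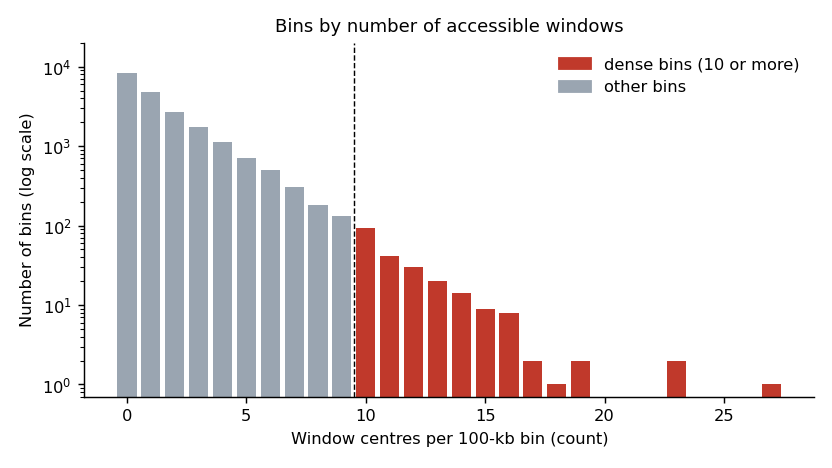
Number of 100-kb bins (y axis, log scale) against the number of window centres they held (x axis), with the dense bins in red and the others in grey; the dashed line is the threshold. The counts fell without a gap across the threshold, to 94 bins with 10 windows just inside it, and 1 bin with 27 windows stood apart.

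The list holds no score and no replicate, so no test of a difference between bins was possible. Shares are given with exact binomial 95% intervals and differences with normal-approximation 95% intervals. Both cover counting error only, and neighbouring windows are not independent.

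The bin with most windows, 27, lay on chromosome 4 (mm9, chr4:144800001-144900000) at Tnfrsf1b, which encodes a receptor for tumor necrosis factor. The body of Tnfrsf1b (ENSMUSG00000028599) held 13 of the windows, introns of its neighbour Tnfrsf8 held 6, 7 were intergenic, and 2 were promoter windows, 1 of them inside the body. AP-1 words were found in 8 of these windows: in the promoter window 453 bp into the gene, in introns 17712 and 24805 bp into it, upstream of it at 3485, 7693 and 11300 bp, and in introns of Tnfrsf8. The next bin along the chromosome held 0 windows and the one before it 4.

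The bin at Pmepa1 (chr2:173000001-173100000), a gene known as an inhibitor of TGF-beta signalling, held 23 windows and 0 of them were within 1 kb of a start site. The body of Pmepa1 (ENSMUSG00000038400) held 18, which was the highest number for any gene body within 1 dense bin. The AP-1 word was in 3 of the 23. Zbp1, a sensor of nucleic acids, starts in the same bin and had 3 windows within 10 kb of its start. The following bin held 10 windows, so that this pair of bins held 33.

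The bin at Zfp36l2 (chr17:84500001-84600000), which encodes a protein that binds and destabilises messenger RNAs, also held 23 windows, with the opposite layout. Zfp36l2 (ENSMUSG00000045817) is a short gene, and 19 of the windows were intergenic, 5274 to 85544 bp downstream of its start, while 4 were promoter windows. The AP-1 word was in 5 and the PU.1 word in 3 of them. No other protein-coding gene starts in this bin.

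The bin at chr12:88100001-88200000 held 19 windows, all intergenic, and no protein-coding start site. The windows lay 35686 to 73763 bp from the nearest one, of Gm6772 on one side and of 6430527G18Rik on the other. The AP-1 word was in 4 of them and the PU.1 word in 1, and the following bin held 14 windows more. Altogether 5 dense bins had only intergenic windows.

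Klf6, a zinc-finger factor induced early after stimulation, was the only coding gene to start in a bin of 19 windows (chr13:5800001-5900000). There, 9 windows were intergenic, 8 lay in its short body and 3 at its promoter, 1 of these in the body as well, and 11 were within 10 kb of its start. At 40.9% GC this bin was well under the median of the dense bins, 48.0%.

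Of the next 5 bins by count, 2 were mostly promoters and 3 were not. Bins with 16 windows numbered 8, and those of Ier5 and Cebpb were taken first by position. In the other bins of 16, promoters made up 12.5% to 87.5% of windows. Of the 18 windows at chr11:48600001-48700000, 10 were promoter windows, and 5 coding genes start there, among them Trim7 and Trim41, of the tripartite-motif ubiquitin ligases, Gnb2l1, which encodes a ribosome-bound scaffold protein, and Irgm1, an interferon-induced GTPase. Of the 17 at chr1:174400001-174500000, 10 were promoter windows, at Igsf9, Tagln2, Ccdc19 and Slamf9 among others. Akna, named for its AT-hook motif, held 9 of the 17 windows of chr4:63000001-63100000. The bin of Ier5, an immediate early gene, and Mr1, which presents metabolites to T cells, held 16 windows with 3 at promoters. The bin of Cebpb, a factor of myeloid and of mammary epithelial cells, held 16, of which 11 were intergenic windows 41734 to 76826 bp upstream of the start of Tmem189, whose annotated body overlaps Cebpb. All 10 of these bins held at least 14 windows when overlapping windows were merged.

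**Figure D2:**
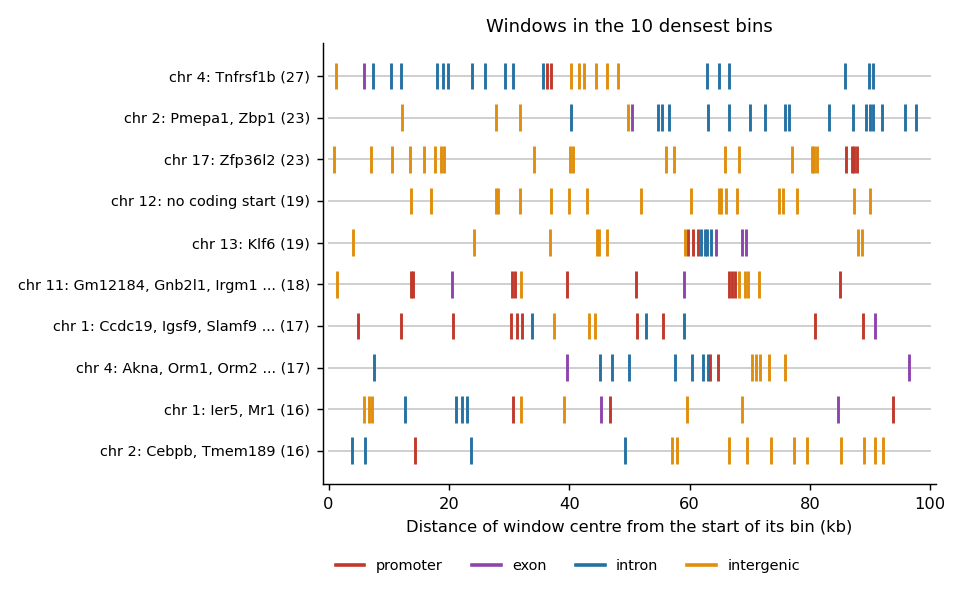
Position of each window centre in the 10 densest bins, with ties by position, in kb from the start of its bin. There is 1 row per bin, labelled by chromosome, up to 3 of the coding genes that start there, and the number of windows. Ticks are coloured by location; the row of chromosome 2 with 23 windows has no promoter tick, and the row of chromosome 12 has 19 intergenic ticks.

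The dense bins thus ranged from rows of promoters to stretches with none. A promoter window was one within 1 kb of any annotated start site. In 45 promoter-led bins at least 50% of the windows were at promoters, in 99 distal-led bins at most 20%, and 80 bins were mixed. Promoter-led bins held a median of 5 protein-coding start genes, mixed bins 2 and distal-led bins 1. In the distal-led bins 47.2% of windows were in introns and 38.0% between genes, against 15.9% and 14.5% in promoter-led bins. By number of promoter windows the highest was the bin of Daxx, a histone chaperone, and Tapbp, which loads antigenic peptides, with 14 of 16, while 22 bins, the Pmepa1 bin among them, had 0. By share, a histone gene bin on chromosome 13 (Hist1h1a and others) and the bin of Plec, a cytoskeletal linker, on chromosome 15 stood higher, with 9 of 10 windows at promoters (90.0%). The bin of Muc1 had 12 of 16.

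**Figure D3:**
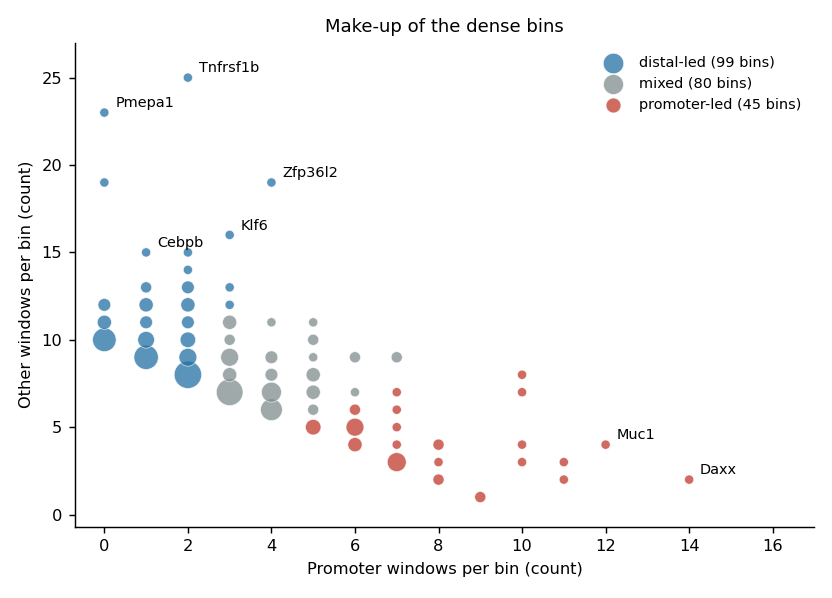
Promoter windows (x axis) against all other windows (y axis) in each dense bin; the area of a point grows with the number of bins at that place and its colour gives the class. The Tnfrsf1b and Pmepa1 bins lie at the top left with 25 and 23 other windows, and the Daxx and Muc1 bins at the right with 14 and 12 promoter windows.

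The number of genes varied widely among dense bins. Of these bins, 14 had no protein-coding start site, 66 had 1, and 37 had 5 or more. Conversely, of the 94 bins with 8 or more protein-coding genes on the 16 chromosomes, 12 were dense, and such gene-rich bins held a median of 5 windows. Across all 20646 bins the numbers of windows and of genes went together (Spearman's rho 0.482), but across the dense bins alone rho was 0.0517. These rho values are descriptions over bins that share 1 list. In 70 dense bins the windows away from promoters would have reached the threshold by themselves.

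Single gene bodies accounted for many of the bins. In 39 dense bins the body of 1 protein-coding gene held 10 or more windows, and in 89 it held at least 50% of them. The genes singled out next were chosen after their values were seen. After Pmepa1 and Tnfrsf1b came Eif2c2, an Argonaute gene, also with 13 windows, and then bodies with 12, among them Map3k1, a kinase upstream of Jun kinase, Prex1 and Trio, which activate Rac GTPases, Ptk2b, a kinase related to focal adhesion kinase, and Itpr1, the calcium channel of the endoplasmic reticulum. Itpr1 and Trio had 0 promoter windows and 0 AP-1 words in these bins, whereas Ptk2b had 1 promoter window and 4 AP-1 words.

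Over all members, promoters made up 29.4% of windows (27.7 to 31.2) against 28.5% (28.0 to 29.0) in the other bins, a difference of 0.922 points (-0.889 to 2.73) that was positive on 8 of 16 chromosomes. The sign of this difference changed when overlapping windows were counted once, to -0.431. Intergenic windows were less frequent in dense bins, 28.8% against 34.8%, and were more frequent there on 3 of the 16 chromosomes. This was not particular to dense bins. The share was 54.4% in bins with 1 window, 27.8% with 4 to 6 and 27.2% with 7 to 9. Introns held 37.1% against 33.2%, higher in dense bins on 8 of 16 chromosomes, and exons 4.63% against 3.48%. Of the exonic members, 58 overlapped coding sequence at their centre, 41 untranslated parts and 23 exons of noncoding transcripts. Members lay a median of 4773 bp from the closest start, windows of other bins 8417 bp. That median was 4896 bp in bins with 4 to 6 windows and 3874 bp in bins with 7 to 9.

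The promoter share did not rise steadily with the number of windows in a bin. Promoter windows were 15.1% in bins with a single window, 26.9% with 2 to 3, 33.8% with 4 to 6, 33.1% with 7 to 9 and 29.4% in the dense bins. The dense bins were therefore lower in promoters than the bins next to them in count. The share of bins without a protein-coding start site fell along the same order from 56.7% to 6.25%, and the median GC content of the bins went from 40.8% to 48.0%.

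**Figure D4:**
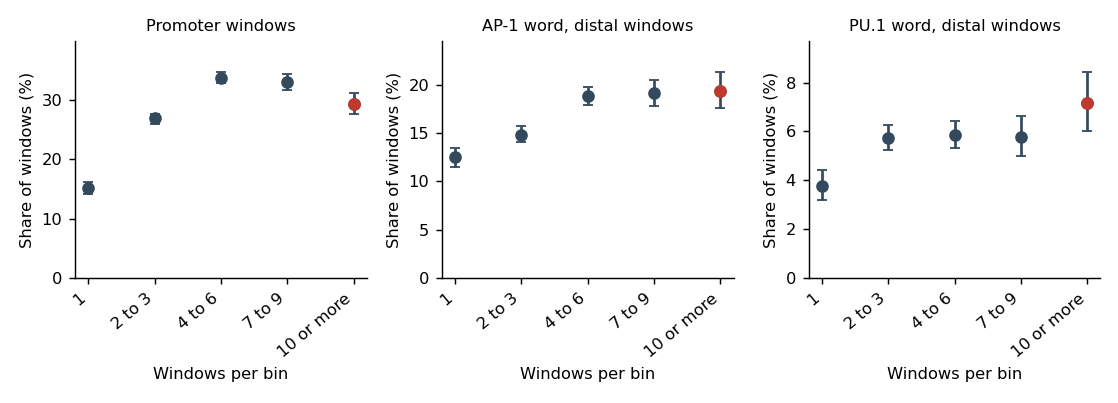
Share of windows (%) that were at promoters (left), and of windows over 1 kb from a start site that held the AP-1 word (middle) or the PU.1 word (right), by the number of windows in the bin; bars are exact binomial 95% intervals and dense bins are red. Promoters were highest with 4 to 6 windows at 33.8%, AP-1 levelled from 18.8% to 19.4%, and PU.1 was highest in the dense bins at 7.15%.

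At genes in dense bins, promoters often held several windows. Of 603 protein-coding genes that start in a dense bin, 444 (73.6%) had a window within 1 kb of a start, and 53.8% of those had 2 or more. In other bins the shares were 41.7% and 29.4%. These counts are tied to the rule, which asks for many windows, and are given as a description.

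The outermost centres of a dense bin lay a median of 78816 bp apart and neighbours a median of 4095 bp apart, both tied to the number of windows that the rule asks for. Overlap added to the counts, since 340 members (12.9%) overlapped another window, against 6.63% elsewhere, and 7.44% against 3.85% came from called peaks with several summits. With overlapping windows merged, 170 bins still held 10 or more. The peaks of a bin that stayed in the list were 50.0% of 5053 called between its outermost windows, close to the 46.1 to 49.4% of bins with 2 to 9 windows. This count starts and ends on retained peaks and leaves out stretches without windows, whereas the 24.6% covers whole chromosomes. The shares are therefore not alike.

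The bins next to a dense bin held a median of 4 windows, against 1 over all bins, and 29 of 448 neighbours held 0. Most dense bins had no dense neighbour; 41 of them lay in 13 pairs and 5 rows of 3 adjacent bins. The row at chr2:167400001-167700000 held 44 windows around Cebpb, Tmem189 and Ube2v1, a ubiquitin-conjugating enzyme variant, with 6 at promoters and 9 with the AP-1 word. The row at chr19:53400001-53700000 also held 44, from Mxi1, an antagonist of Myc, to Dusp5, a phosphatase of MAP kinases, and Smc3, a subunit of cohesin. No protein-coding gene starts in its middle bin of 16 windows, where the long noncoding genes 5830416P10Rik and 4833407H14Rik start and have 10 and 7 windows within 10 kb. The row at chr10:79500001-79800000 was a row of promoters, 23 of 39, over many short genes, among them Midn, Sbno2, Stk11 (the kinase LKB1) and Reep6. The remaining 2 rows, named because they complete the count, lay around Litaf on chromosome 16, with 32 windows of which 0 had the AP-1 word, and around Ier3 and Tubb5 on chromosome 17, with 31 windows of which 21 were at promoters.

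Sequence words were searched on both strands in all windows, for 20 families. Over 1 kb from start sites, 6 of the 20 differences between dense and other bins had intervals above 0 (AP-1, PU.1, E-box, STAT, SP and KLF, and the cyclic AMP element) and 1, YY1, had an interval below 0. The AP-1 word was in 19.4% (17.6 to 21.3) of the 1859 such members, against 16.3% in other bins and 16.6% over all windows away from start sites. The difference was 3.09 points (1.22 to 4.95) and had this sign on 13 of 16 chromosomes. Against bins with 4 to 9 windows the difference was 0.494 points (-1.45 to 2.44).

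The PU.1 word was in 7.15% (6.02 to 8.42) of distal members against 5.42%, with 5.55% over all, and was higher on 13 of 16 chromosomes. The difference was 1.74 points (0.53 to 2.95), and 1.33 (0.0748 to 2.58) against bins with 4 to 9 windows. It was 0.809 (0.103 to 1.52) with all of chromosomes 1 to 19 and X, and its interval held 0 with 15 or more windows per bin (-0.207 to 6.01) and with 200-kb bins (-0.229 to 3.95). The E-box word CACGTG, read by Myc and its relatives and by clock factors, was in 11.2% of distal members against 8.17%, with 8.4% over all, and against bins with 4 to 9 windows it differed by 1.86 points (0.318 to 3.39). The STAT word TTCCNGGAA, read by factors downstream of cytokine receptors, was in 2.47% against 1.69%, with 1.75% over all, and was higher on 14 of 16 chromosomes. This rests on 46 distal members, with a difference of 0.783 points (0.0566 to 1.51). The cyclic AMP element was in 23 distal members, with a difference of 0.528 points (0.0138 to 1.04). Both intervals came close to 0, and neither word was set against bins with 4 to 9 windows. The SP and KLF word GGGGCGGGG was in 3.6% against 2.41%, with 2.5% over all. The TEAD word GGAATGT, of the factors that act with YAP, was in 6.4% against 7.33%, a difference whose interval held 0 (-2.09 to 0.233). The words of RUNX, GATA, FOX and CTCF factors also had intervals that held 0.

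Members were richer in GC than other windows, and base composition moves with these words. Away from start sites the median GC content was 51.2% in dense and 48.0% in other bins. Within GC classes, AP-1 was in 20.7% against 16.7% of windows with 45 to 50% GC, 20.8% against 18.8% with 50 to 55%, and 20.4% against 19.0% with 55 to 60%, but in 11.9% against 13.2% below 45%. PU.1 was in 6.85% against 5.98% with 45 to 50%, 7.81% against 6.14% with 50 to 55%, 9.77% against 5.79% with 55 to 60%, and 1.55% against 3.96% below 45%. The E-box was in 9.55% against 8.45%, 12.7% against 9.47%, 11.5% against 9.81% and 8.76% against 5.37% in the same classes. In the 83 distal members with 60% GC or more, AP-1 was in 13.3% against 9.11%, PU.1 in 6.02% against 2.97% and the E-box in 14.5% against 16.1%. The SP and KLF word did not keep its difference, with 2.8% against 2.6% at 50 to 55% and 6.03% against 6.73% at 55 to 60%.

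Near start sites, 2 of the 20 differences had intervals above 0 (AP-1 and FOX) and 4 had intervals below 0 (Ets, NRF1, YY1 and the E-box). The Ets word was in 42 of 774 members, 5.43% (3.94 to 7.26), against 7.77% in other bins and 7.58% over all, lower on 13 of 16 chromosomes. The NRF1 word GCATGCGC was in 3.1% against 5.14%, with 4.98% over all, and the YY1 word AAGATGGCG was in 2.07% against 3.58%, with 3.46% over all. The AP-1 word was in 9.95% against 7.64%, with 7.83% over all. Promoter windows of dense bins also held fewer CpG dinucleotides, with a median of 26 against 33, and their part in the Ets and NRF1 differences was not tested. With promoters limited to 500 bp the Ets difference was -2.23 points, close to -2.34 as reported, but in bins with 15 or more windows it was 0.981 (-4.11 to 6.07). Between the classes of dense bins, the Ets word was in 5.22% of all windows of promoter-led bins, 2.46% of mixed and 0.847% of distal-led bins, an order tied to the promoter share that defines the classes. The AP-1 word was in 13.9% (11.1 to 17.2), 16.8% and 17.7% (15.6 to 20.0) of all windows in the same order. Among distal windows alone it was in 22.3% (16.5 to 29.0), 20.5% and 18.3% (16.0 to 20.7), with overlapping intervals.

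Of all 16999 protein-coding genes on the 16 chromosomes, 603 (3.55%) start in a dense bin. The share was similar for long intergenic noncoding genes, 41 of 1010 (4.06%), and for microRNA genes, 40 of 1210 (3.31%), and was 35 of 3548 (0.986%) for pseudogenes. The noncoding genes, singled out after their values were seen, include Pvt1, beside Myc, and Airn, the antisense transcript of the imprinted Igf2r domain. The long body of Pvt1 held 19 windows, but not all were members. The dense bin of Myc held 14 windows, and the following bin, with 8, was not dense. The microRNA genes of dense bins include Mir200c and Mir141, of the family that maintains epithelial identity, and Mir146b, which dampens NF-kB signalling and has 6 windows within 10 kb. Mir200c and Mir141 start in the same bin as the leukocyte gene Ptpn6 and other coding genes, so that the windows of this bin cannot be assigned to any 1 of them.

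The NF-kB and early response list joins NF-kB subunits and inhibitors to early response genes. Its genes were found in dense bins at 7 of 20 (35.0%, 15.4 to 59.2). The median was 7.5 windows in the bins of the list against 3 over all protein-coding genes. By windows within 10 kb of a start, the 7 genes were led by Klf6 with 11, Myc with 10, and Zfp36l2 and Egr1 with 8. The other members, named beyond the leading 4 after their values were seen, were Nfkbia, the inhibitor of NF-kB, in a bin of 13 windows of which 10 were intergenic, the nuclear receptor gene Nr4a1, and Ier3. Ier3 had 2 windows within 10 kb, in a bin where Tubb5 also starts. Nfkbia was the only NF-kB subunit or inhibitor of the list in a dense bin, so the share rests mainly on the early response genes. Nfkb1, Nfkb2, Rel, Rela, Nfkbie, Nfkbiz and Tnfaip3, with 5 to 8 windows in their bins, were outside. In the AP-1 list, 3 of 11 genes were in dense bins (27.3%, 6.02 to 61.0). Jun and Fosl2 each had 6 windows within 10 kb in bins of 11, and Atf3 had 4 in a bin of 12. Fos lay just outside with 9.

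Genes of the leukocyte list were in dense bins at 5 of 16 (31.2%, 11.0 to 58.7). Runx3, a factor of T and natural killer cells, had 11 windows within 10 kb and spanned a pair of dense bins with 28 windows, of which 1 had the AP-1 word. Ptpn6, the phosphatase SHP-1, had 10, Runx1, a factor of blood cell development, had 7 and Laptm5, a lysosomal protein of leukocytes, had 5, and the remaining gene was Rac2 with 3. Ptprc, which encodes the stained CD45, was in a bin of 4 windows and had 0 within 10 kb. Among narrower immune lists, the myeloid list had 1 of 14 (Cebpb, 7.14%, 0.181 to 33.9). The T and NK cell list had 2 of 16 (Tbx21 and Klrb1c, 12.5%, 1.55 to 38.3), and the B cell list 1 of 7 (Cd79b, 14.3%, 0.361 to 57.9). The intervals of these narrower lists held the 3.55% of all protein-coding genes. Klrb1c had 0 of the 11 windows of its bin within 10 kb, so its place in a dense bin was that of a neighbour. Windows in the bins of Ptpn6, Cd79b and Tbx21 cannot be assigned to 1 gene either. In these bins 6, 6 and 4 coding genes start, and 8, 6 and 4 windows were at promoters. The PU.1 gene itself, Spi1, lay just outside with 9 windows.

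Luminal epithelial genes were in dense bins at 2 of 22 (9.09%, 1.12 to 29.2), with a median of 3 windows in the bins of the list, equal to the median of all genes. Muc1, an epithelial mucin, had 5 windows within 10 kb, in a bin of 9 coding genes with 12 promoter windows. Epcam, the other stained protein, was in a bin of 10 windows of which 4 had the AP-1 word and 1 was within 10 kb of its start. The keratin genes Krt8 and Krt18 were in bins of 3 windows. No gene of the basal and myoepithelial (10 genes), fibroblast (13), endothelial (11) or adipocyte (6) lists was in a dense bin. The same held for the neuron (13), liver (11) and muscle (8) lists. Upper limits of these empty lists were 24.7 to 45.9%. The 3.55% of all protein-coding genes lay within the interval of each of them and of the luminal list, so these counts do not set the lists apart. The window list pools cells that were stained for EpCam and CD45 alike, so that a window cannot be assigned to a cell type. The paper counts the cells of these plates as EpCam-positive or CD45-positive. Empty lists therefore do not describe tumor cells without either stain, and the mix of sorted cells need not match the tumor.

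Hypoxia-responsive genes were in dense bins at 4 of 15 (26.7%, 7.79 to 55.1): Bhlhe40, a repressor of the circadian clock, with 7 windows within 10 kb, Pfkfb3, an activator of glycolysis, with 4, and Ndrg1 and the glucose transporter gene Slc2a1 with 3 each. The Slc2a1 bin had the AP-1 word in 5 and the PU.1 word in 3 of its 10 windows. Of 13 housekeeping genes Gapdh and Tubb5 were in dense bins (15.4%, 1.92 to 45.4), with 10 of 13 and 7 of 10 windows at promoters. The highest shares were those of the early response, leukocyte, AP-1 and hypoxia lists, beside 3.55% of all protein-coding genes. That 3.55% covers genes with and without accessible promoters, the lists were chosen with earlier results known, and no list was tested.

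**Figure D5:**
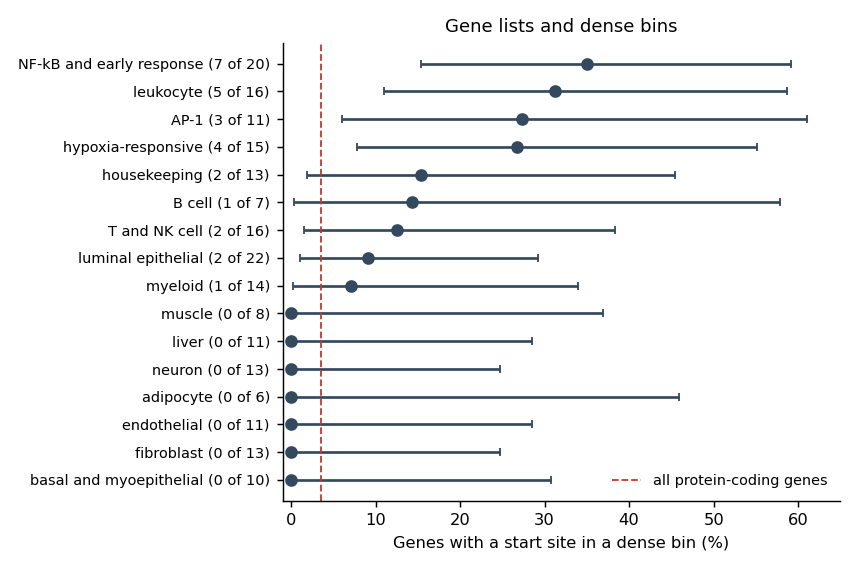
Share (%) of the genes of each list on the 16 chromosomes that start in a dense bin, with exact binomial 95% intervals and, in brackets, the number of genes; the dashed line is the 3.55% of all protein-coding genes. The early response list is highest at 35.0%, and 7 lists have 0 genes in dense bins.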

How the data were processed

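Pi-ATAC, which joins protein staining to single-cell ATAC-seq, was applied to 1 tumor in 4 plates of 96 wells. After adapter trimming the authors used Bowtie2 2.1.0 for mapping to mm9 and Picard 1.79 for duplicates, discarded low-quality and mitochondrial reads, and called summits with MACS2 (version not given in the sources used here) on aggregated cells at a q threshold of 0.05. Summits were widened to 500 bp, and the 50000 with the lowest q were deposited as positions without score, count or depth, the only values used here. All 50000 windows were 500 bp wide.

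Windows were assigned to bins, GENCODE vM1 genes and reference sequence of NCBIM37 (the mm9 assembly) with Python 3.11.15, pandas 2.3.3 and scipy 1.17.1; scripts were checked on simulated positions. Locations were taken at window centres, promoter first, then exon, intron and intergenic. Numbers in the peak names gave the called peaks. Named genes start in the 10 densest bins, the 5 distal-led bins with most distal windows, the longest rows, or belong to a list, up to 4 per bin or list by windows within 10 kb; further genes, such as those of the largest gene bodies and list genes outside dense bins, were chosen after their values were seen. Of the gene list entries, 206 matched on the 16 chromosomes. The members and lists were chosen with earlier results of these data known. Alternatives varied bins, threshold, overlap, promoter distance, start sites and chromosomes. No replicates or read counts were used, so precision is given by the number of windows only.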

Additional observations from a re-analysis of the deposited data

How the results depend on the processing

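The list has no score, so a stricter peak threshold could not be tried, and reads behind a window are unknown. No paired analysis was possible because the wells form 1 pooled list. As reported, 2633 windows were members. With 8 or more windows per bin there were 538 bins and 5278 windows, with 15 or more 25 and 426, with 50-kb bins of 5 or more 1023 and 6276, with 200-kb bins of 20 or more 37 and 852, and with all of chromosomes 1 to 19 and X 537 and 6767. The promoter share was 31.4% at 8, 27.5% at 15, 33.7% with 50-kb bins, 26.7% with overlapping windows counted once, 22.6% within 500 bp, 36.9% within 2 kb and 26.9% with protein-coding start sites only. The promoter difference between dense and other bins was 3.33 at 8, 6.29 with 50-kb bins, and reversed to -1.1 at 15, -0.266 with 200-kb bins and -0.431 with overlaps counted once. The cause was not tested. The distal AP-1 share at 15 was 23.3% and its difference 6.82 points. At the reported threshold of 10, the difference was 0.494 points against bins with 4 to 9 windows. The Ets share near start sites at 15 was 8.55%, with the difference reversed to 0.981, and -0.538 with 200-kb bins. The median number of coding genes was 3 at 15 and with 200-kb bins and 1 with 50-kb bins. The share of protein-coding genes in dense bins was 4.05% with shifted bins, 8.81% at 8, 0.471% at 15, 9.8% with 50-kb and 1.21% with 200-kb bins, 2.51% with overlaps counted once and 6.94% with all chromosomes. Early response genes numbered 2 at 15, 12 with 50-kb and 4 with 200-kb bins, and leukocyte genes 0, 8 and 2. The alternatives for gene lists and for differences were chosen after seeing the data.

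Leaving out each chromosome in turn gave 2325 to 2568 windows, promoter shares of 28.5 to 30.2%, distal AP-1 shares of 18.9 to 19.8%, Ets shares of 4.64 to 5.7%, a median of 2 genes, gene shares of 3.33 to 3.77%, 5 to 7 early response genes and 3 to 5 leukocyte genes, with 3 when chromosome 4, which holds Runx3 and Laptm5, was left out. Differences ranged from 2.58 to 3.47 for AP-1, 1.39 to 1.98 for PU.1, 2.64 to 3.48 for the E-box, -3.0 to -2.04 for Ets and 0.0803 to 2.11 for promoters.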
